A study of Macaca fascicularis with 15 samples.

Results

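Amacrine cells are the inhibitory interneurons of the inner retina, where they act on bipolar cells, ganglion cells and each other. Most release GABA or glycine, and smaller classes release acetylcholine or load glutamate into vesicles. Transcription factors of the AP-2 family mark them from early in their development. A set of 7 genes of this kind was followed in ocular tissue of the cynomolgus monkey. They were chosen by name: SLC32A1 (the vesicular transporter of GABA and glycine), GAD2 (a GABA-synthesizing enzyme), SLC6A9 (a plasma membrane glycine transporter), SLC17A8 (the vesicular glutamate transporter VGLUT3), SLC18A3 (the vesicular acetylcholine transporter), and TFAP2A and TFAP2C (AP-2 alpha and AP-2 gamma). All 7 are present in every table, out of 12995 genes, and all 7 passed the filter on low values, which asked for a group mean of 1 or more in any group.

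RNA sequencing covered 4 groups of wild-type tissue, with 4 libraries of central retina, 3 of peripheral retina, 2 of whole retina and 2 of whole eye. Each came from 1 eye and from tissue kept in an RNA-preserving solution. The central tables carry the name of the macula in their headers. Another 4 records, 2 of whole retina and 2 of whole eye, were not analysed here, no age is given, and the labels do not say whether regional samples are from different animals. The p-values therefore reflect the spread among these libraries alone, part of which may be technical. Values are the authors' normalized signal in a unit that is not stated, so levels are compared between libraries and not between genes. Two-sided limma tests on log2(value + 1) covered 11933 genes, with p-values adjusted over all of them within each of 6 comparisons and a threshold of 0.05. Differences are on that log2 scale, with their SE.

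Absolute depth is unknown. The number of genes listed at 0 ran from 313 to 501 in the regional libraries and from 171 to 226 in those of whole retina and whole eye. The libraries labelled whole retina held markers of tissues outside the neural retina at high values. The summed value of 6 lens genes was 1.62 to 4.67 in central retina and 2.1 to 4.83 in peripheral retina, against 366 to 529 in whole retina and 2730 to 3000 in whole eye. Summed pigment epithelium genes were at 246 to 357 in central retina and 670 to 980 in peripheral retina, against 2320 to 2500 in whole retina. Summed muscle genes reached 1200 to 1400 in whole retina. Across genes, which are not independent replicates, the correlation of whole retina libraries was 0.914 to 0.955 with those of whole eye and 0.803 to 0.875 with the regional ones. The part of these tissues in any difference between a region and whole retina or whole eye was not tested. The summed value of the 7 amacrine genes moved far less, between 96.3 and 123 in central retina, 106 and 129 in peripheral retina, 94.6 and 95.6 in whole retina, and 89.4 and 92.0 in whole eye. This sum does not stand for each gene. SLC6A9, its largest part, averaged 41.9 in central and 55.5 in whole retina, while SLC32A1 averaged 32.1 and 14.3. Other neural lists also moved less than lens or muscle genes. Summed bipolar cell genes were at 481 to 607 in central retina and 314 to 355 in whole eye. Summed ganglion cell genes were at 2140 to 4090 and 795 to 874. In bulk tissue, fewer cells of a type and less RNA per cell cannot be told apart.

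**Figure D1:**
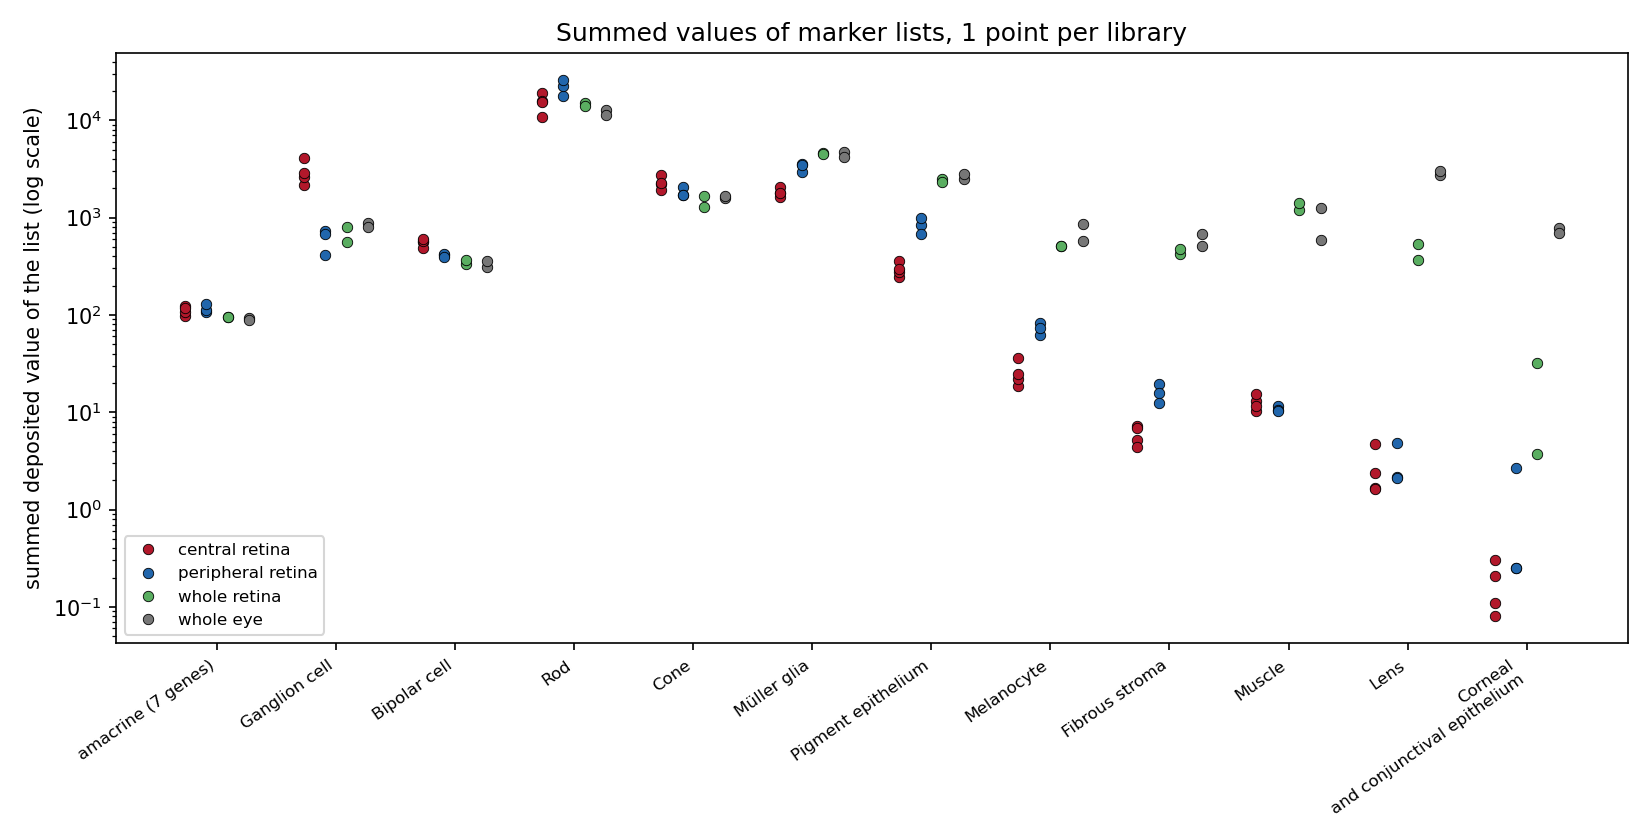
Summed deposited value of each marker list in each library, on a log axis, with 1 point per library and colours for central retina, peripheral retina, whole retina and whole eye. The 7 amacrine genes sum to 89.4 to 129 in all 11 libraries, while summed lens, muscle, stroma and melanocyte genes lie far higher in whole retina and whole eye than in both regions. The sum does not show the level of any single gene.

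Between the regions, the 7 genes did not move as a group. SLC17A8 was lower in central than in peripheral retina, and none of the other 6 passed the test; at an unadjusted p under 0.05, 4 of the 7 did, against 35.7% of all tested genes. Of all tested genes, 8.76% were lower and 12.5% higher in that comparison, and 21.3% (2538 genes) passed in either direction. That count was 1654 without central retina replicate 4 and 1328 without peripheral retina replicate 2. The median difference of the 7 was −0.23, against −0.01 over all tested genes. Central and peripheral libraries did not overlap for 4 of the 7 (SLC32A1, GAD2, SLC17A8 and TFAP2C), against 34.6% of all tested genes.

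**Figure D2:**
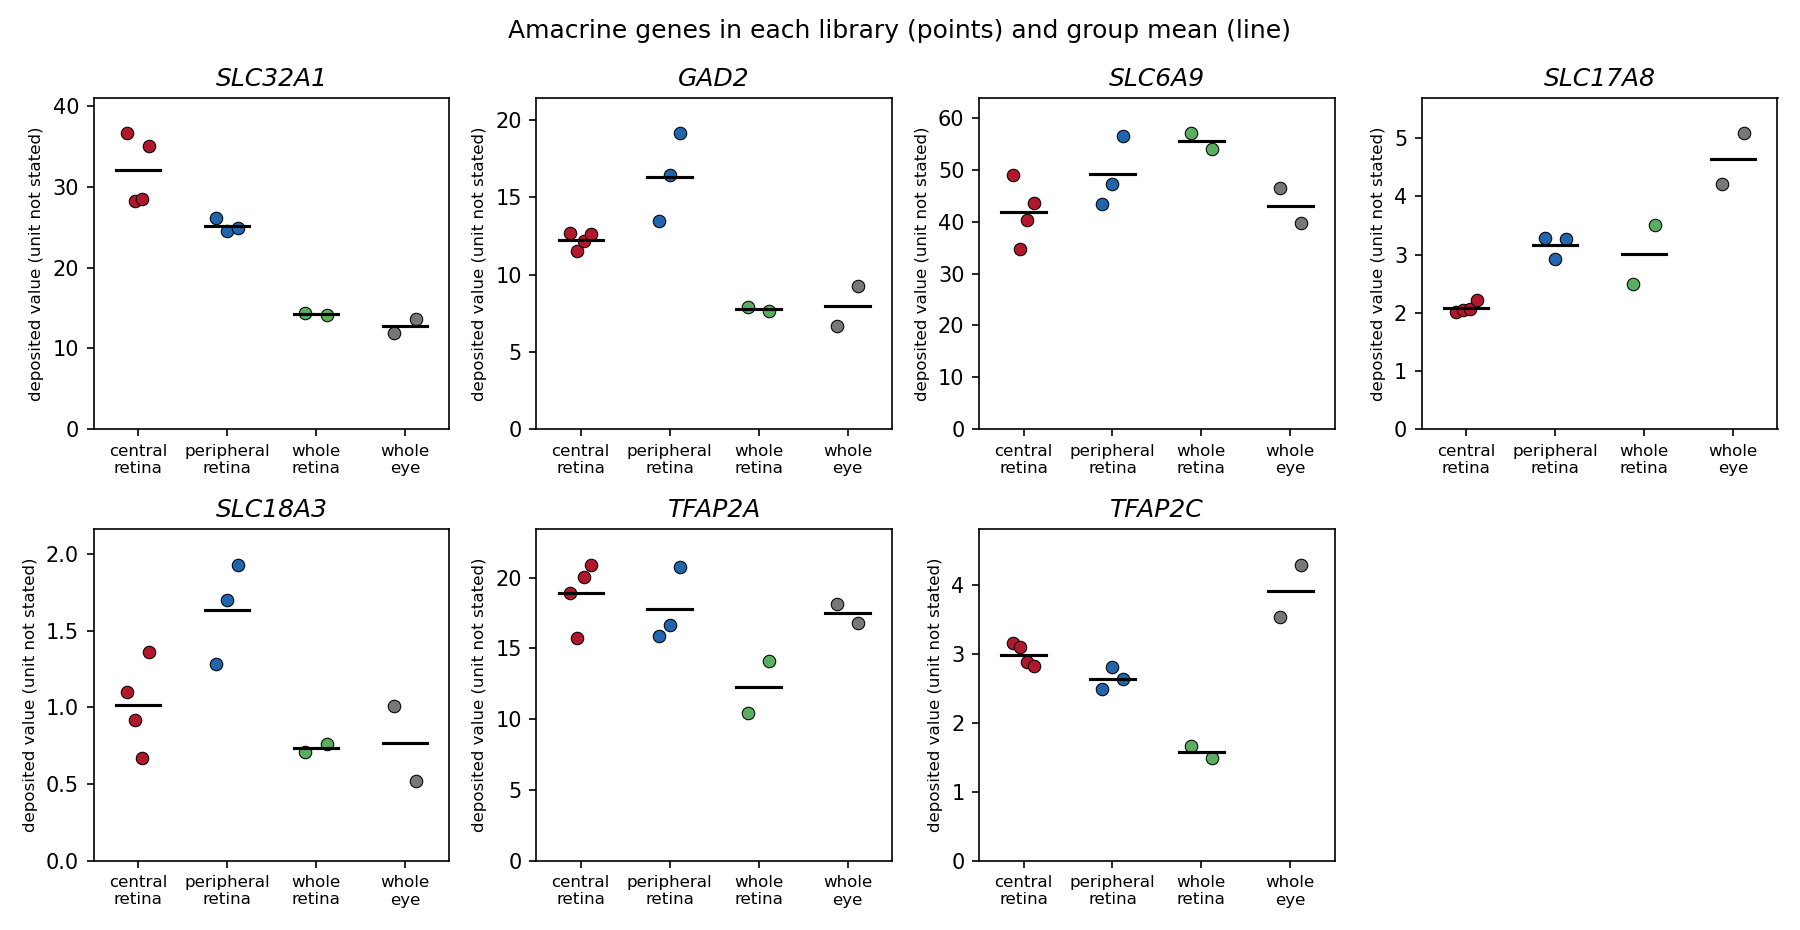
Deposited value (unit not stated, axis from 0) of each of the 7 amacrine genes, with 1 point per library and a line at the group mean, in central retina, peripheral retina, whole retina and whole eye. SLC32A1 stands highest in central retina, GAD2 and SLC18A3 in peripheral retina, SLC6A9 in whole retina, and SLC17A8 and TFAP2C in whole eye.

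SLC32A1 fills synaptic vesicles of both GABA and glycine neurons, and horizontal cells use it as well. It was listed at 36.61, 28.3, 28.54 and 35.11 in central retina, 26.12, 24.49 and 24.89 in peripheral retina, 14.45 and 14.18 in whole retina, and 11.97 and 13.66 in whole eye. Every central library lay above every peripheral one, and all regional libraries lay above those of whole retina and whole eye. The means were 32.1 ± 4.34 (SD, n = 4) in central retina and 25.2 ± 0.849 (SD, n = 3) in peripheral retina, a difference of 0.33 ± 0.115 (95% interval 0.08 to 0.59) that missed the threshold at a limma adjusted p of 0.0624. It passed at 0.0369 without central retina replicate 2, the lowest of the central libraries. Against whole retina (14.3 ± 0.191, SD, n = 2), SLC32A1 was higher by 1.10 ± 0.13 in central retina (limma adjusted p = 3.92e-05) and by 0.77 ± 0.138 in peripheral retina (adjusted p = 0.00127). Against whole eye (12.8 ± 1.2, SD, n = 2), the differences were 1.26 in central retina and 0.92 in peripheral retina, at limma adjusted p = 1.33e-05 and 0.00032. All 4 calls held under every alternative tried, and they share the same whole retina or whole eye libraries. Whole retina and whole eye differed by 0.15 (95% interval −0.18 to 0.48, limma adjusted p = 0.763).

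GAD2, one of the pair of enzymes that make GABA from glutamate, had the opposite order between the regions. Its values were 12.68, 11.53, 12.15 and 12.61 in central retina, 13.45, 16.42 and 19.13 in peripheral retina, 7.88 and 7.67 in whole retina, and 6.69 and 9.28 in whole eye. Central libraries sat close together and all lay below the peripheral ones, which were spread more widely. The difference of −0.38 ± 0.136 (95% interval −0.68 to −0.08) between central (12.2 ± 0.53, SD, n = 4) and peripheral retina (16.3 ± 2.84, SD, n = 3) missed the threshold at a limma adjusted p of 0.0725, and passed at 0.0408 without peripheral retina replicate 1. Both regions stood above whole retina (7.78 ± 0.148, SD, n = 2), by 0.59 ± 0.154 in central retina (limma adjusted p = 0.00826) and 0.97 ± 0.163 in peripheral retina (0.000865). The same held against whole eye (7.98 ± 1.83, SD, n = 2), at 0.57 in central retina and 0.95 in peripheral retina (limma adjusted p = 0.00873 and 0.000858). The call on central against whole retina was lost at an adjusted p of 0.0505 without whole retina replicate 2, and the call on central retina against whole eye at 0.116 without whole eye replicate 1. Whole retina and whole eye overlapped, with a difference of −0.02 (95% interval −0.41 to 0.37).

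GAD1, the partner enzyme, followed GAD2 in the order of its means, with smaller differences among the retinal groups. It averaged 31.1 ± 1.25 (SD, n = 4) in central retina, 35.7 ± 5.11 (SD, n = 3) in peripheral retina, 23.1 ± 0.926 (SD, n = 2) in whole retina and 28.2 ± 0.212 (SD, n = 2) in whole eye. Central and peripheral libraries overlapped, and their difference was −0.18 (95% interval −0.42 to 0.05, limma adjusted p = 0.239). GAD1 was higher than in whole retina by 0.42 in central retina (limma adjusted p = 0.0138) and by 0.60 in peripheral retina (0.00368), and the first of these calls was lost at 0.0748 without whole retina replicate 1.

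SLC6A9 takes glycine back up at glycinergic amacrine cells, and was the member with the least spread over the 11 libraries, at an SD of 0.21 on the log2 scale. It was listed at 48.95, 34.65, 40.31 and 43.7 in central retina, 43.48, 47.35 and 56.51 in peripheral retina, 57.0 and 53.97 in whole retina, and 46.44 and 39.77 in whole eye. Regional libraries overlapped each other and those of whole eye. The means were 41.9 ± 6.0 (SD, n = 4) in central, 49.1 ± 6.69 (SD, n = 3) in peripheral, 55.5 ± 2.14 (SD, n = 2) in whole retina and 43.1 ± 4.72 (SD, n = 2) in whole eye. Central against peripheral retina gave −0.23 (95% interval −0.52 to 0.07, limma adjusted p = 0.254). Whole retina against whole eye gave 0.36 (95% interval −0.03 to 0.75, adjusted p = 0.508). SLC6A9 passed in 1 of the 6 comparisons, where it was lower in central than in whole retina, at −0.41 ± 0.153 (limma adjusted p = 0.0457). That call was lost without any 1 of central retina replicates 2, 3 and 4, peripheral retina replicates 1 and 2 or either whole retina replicate, at an adjusted p of up to 0.166, and at −0.23 and 0.299 after centring each library on its median gene. The reference annotation places CCDC24 over part of SLC6A9. CCDC24 was listed at 2.18 to 6.99, and whether reads were counted by strand is not given in the sources used here. SLC6A5, the transporter of glycine neurons elsewhere in the nervous system, was listed at 0 to 0.05.

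SLC17A8 loads glutamate into the vesicles of an amacrine class that also uses glycine, as known from mice. It was the only one of the 7 that differed between the regions by the test, with 2.01, 2.05, 2.07 and 2.22 in central retina, 3.28, 2.92 and 3.27 in peripheral retina, 2.5 and 3.51 in whole retina, and 4.22 and 5.08 in whole eye. The 4 central libraries lay within a narrow band below every other library, and both whole eye libraries lay above all the rest. Central retina averaged 2.09 ± 0.0918 (SD, n = 4) and peripheral retina 3.16 ± 0.205 (SD, n = 3), a difference of −0.43 ± 0.119 (limma adjusted p = 0.0272). The call was lost, with the difference between −0.47 and −0.41, without any 1 of central retina replicates 1 and 3 and peripheral retina replicates 1, 2 and 3, at an adjusted p of up to 0.0896, and at −0.35 and 0.101 under quantile normalization. With replicate number as a block in the fit, the difference was −0.45 and did not pass (limma adjusted p = 0.052).

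Whole eye held the most SLC17A8, at 4.65 ± 0.608 (SD, n = 2). Against it, SLC17A8 was lower in central retina, at −0.87 ± 0.135 (limma adjusted p = 0.000275), and in peripheral retina, at −0.44 ± 0.143 (0.03). The central call stayed under the threshold in every alternative that tested the gene, which a filter at a mean of 5 left out. The peripheral call was lost without any 1 peripheral replicate or without whole eye replicate 2, at an adjusted p of up to 0.176, and at −0.25 after median centring and −0.12 after quantile normalization (0.218 and 0.601). Whole retina, at 3.0 ± 0.714 (SD, n = 2), differed from whole eye by −0.50 (95% interval −0.85 to −0.16) and missed the threshold at 0.206; without whole retina replicate 2, the higher of the pair, it passed at −0.69 and 0.0302. Central retina was also lower than whole retina, at −0.36 ± 0.135 and an adjusted p of 0.0443. This call was lost without whole retina replicate 2, at −0.18 and 0.379, without any 1 of the 7 regional libraries, at 0.0558 to 0.085, and under median centring, at −0.18 and 0.318, and its sign turned to 0.07 under quantile normalization. Peripheral and whole retina overlapped (0.06, 95% interval −0.25 to 0.38). With replicate number as a block in the fit, central against whole retina did not pass (limma adjusted p = 0.065).

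SLC18A3 packs acetylcholine into vesicles of starburst amacrine cells, the cholinergic neurons that shape direction selectivity. It lay near the low end of the tables, at 1.1, 0.92, 0.67 and 1.36 in central retina, 1.28, 1.7 and 1.93 in peripheral retina, 0.71 and 0.76 in whole retina, and 1.01 and 0.52 in whole eye. It passed the filter on low values through its regional means only, and its differences from whole retina and whole eye carry that selection. Peripheral retina (1.64 ± 0.33, SD, n = 3) held the highest values and central retina averaged 1.01 ± 0.291 (SD, n = 4), but the highest central library lay above the lowest peripheral one. The difference was −0.39 ± 0.154 (95% interval −0.73 to −0.05, limma adjusted p = 0.0933). Peripheral retina was higher than whole retina (0.735 ± 0.0354, SD, n = 2) by 0.60 ± 0.184 (limma adjusted p = 0.0278) and higher than whole eye (0.765 ± 0.346, SD, n = 2) by 0.59 ± 0.184 (0.0261). With replicate number as a block in the fit, neither passed (limma adjusted p = 0.0536 and 0.0514). Both calls were lost without peripheral retina replicate 2 or 3, the first also without either whole retina replicate and the second without whole eye replicate 2, at adjusted p of up to 0.0905 and 0.19. Central retina overlapped both, with differences of 0.20 from whole retina and 0.19 from whole eye (95% intervals −0.18 to 0.59 and −0.19 to 0.58). Under quantile normalization these became 0.77 and 0.87 and passed, at 0.00312 and 0.00129.

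CHAT, which makes acetylcholine, is the immediate neighbour of SLC18A3 in the reference annotation, and in mammals the pair shares a locus. It was listed at 0.24, 0.3, 0.5 and 0.32 in central retina, 0.66, 0.81 and 0.72 in peripheral retina, 0.23 and 0.42 in whole retina, and 0.46 and 0.44 in whole eye, below the filter in every group. All 3 peripheral libraries lay above the other 8. With no filter on low values, CHAT was lower in central than in peripheral retina, at −0.37 (limma adjusted p = 0.00878), and higher in peripheral than in whole retina, at 0.39 (0.00898). SLC5A7, the choline transporter of cholinergic terminals, averaged 0.61 ± 0.123 (SD, n = 4) in central retina and 1.02 ± 0.106 (SD, n = 3) in peripheral retina. It passed the filter through peripheral retina alone, where it was highest, so its difference of −0.33 carries that selection. It missed the threshold at a limma adjusted p of 0.0993 and, with no filter, at 0.0634, passing at 0.044 without whole retina replicate 2 and at 0.0236 with the regional libraries alone in the fit.

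TFAP2A, which takes part in amacrine development in mice, was close to level between the regions. Its values were 18.93, 15.75, 20.03 and 20.91 in central retina, 15.86, 16.68 and 20.76 in peripheral retina, 10.44 and 14.08 in whole retina, and 18.17 and 16.78 in whole eye. Whole retina libraries were the lowest, and the regional and whole eye libraries overlapped. Central retina averaged 18.9 ± 2.25 (SD, n = 4) and peripheral retina 17.8 ± 2.62 (SD, n = 3), a difference of 0.09 (95% interval −0.22 to 0.40). Against whole retina (12.3 ± 2.57, SD, n = 2), TFAP2A was higher by 0.59 ± 0.16 in central retina (limma adjusted p = 0.0101) and by 0.51 ± 0.169 in peripheral retina (0.0386). Without whole retina replicate 1, the lower of the pair, these were 0.39 and 0.31 and did not pass (0.118 and 0.277); removing central retina replicate 1 or 3, or either of peripheral retina replicates 2 and 3, also ended the peripheral call, at 0.053 to 0.12. Whole eye (17.5 ± 0.983, SD, n = 2) differed from central retina by 0.10, from peripheral retina by 0.01 and from whole retina by −0.49 (95% interval −0.90 to −0.08), each given as region or whole retina minus whole eye, and none passed. With replicate number as a block in the fit, peripheral against whole retina did not pass either (limma adjusted p = 0.0757).

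TFAP2C marks a subset of amacrine cells and is also an epithelial gene. It was listed at 3.15, 3.1, 2.88 and 2.82 in central retina, 2.49, 2.8 and 2.63 in peripheral retina, 1.66 and 1.48 in whole retina, and 3.53 and 4.29 in whole eye. Every whole retina library lay below, and every whole eye library above, all regional ones. The regions were close, at 2.99 ± 0.162 (SD, n = 4) in central retina and 2.64 ± 0.155 (SD, n = 3) in peripheral retina, and did not overlap. Their difference of 0.13 (95% interval −0.10 to 0.36) did not pass.

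Of the 7 genes, TFAP2C alone passed between whole retina (1.57 ± 0.127, SD, n = 2) and whole eye (3.91 ± 0.537, SD, n = 2), at −0.93 ± 0.138 (limma adjusted p = 0.00268), where 2.27% of all tested genes passed (271 genes, 2.10% lower and 0.168% higher), or 784 genes without whole retina replicate 2, of which 493 were higher and 291 lower. With only the 4 libraries of these groups in the fit, the adjusted p was 0.154. Corneal and conjunctival epithelium genes moved with it between whole retina and whole eye. They did not in the regions against whole retina, where their medians were −0.63 (central) and −0.6 (peripheral) and TFAP2C was higher. The 5 listed epithelium genes of 12 summed to 3.74 to 32.0 in whole retina and 695 to 784 in whole eye. In central retina they summed to 0.08 to 0.3 and in peripheral retina to 0.25 to 2.66. Their part in the TFAP2C result was not tested. TFAP2C was higher than in whole retina by 0.63 ± 0.12 in central retina (limma adjusted p = 0.0012) and by 0.50 ± 0.126 in peripheral retina (0.01), the second call being lost at 0.0516 without whole retina replicate 2. It was lower than in whole eye in peripheral retina, at −0.43 (0.0195), a call lost without peripheral retina replicate 1 or whole eye replicate 2 (0.0592 and 0.127) and under median centring and quantile normalization (0.14 and 0.701). Central retina against whole eye missed the threshold at −0.30 and 0.0549, and passed without either whole retina replicate or without whole eye replicate 1 (0.0399 to 0.0496), with no filter on low values (0.0293) and with no trend of variance (0.0437).

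Against whole retina, 4 of the 7 genes stood higher and 2 stood lower in central retina, where 18.9% of all tested genes were higher and 29.7% lower. In peripheral retina 5 were higher and 0 lower, against 9.83% and 24.3%; by an unadjusted p under 0.05, 5 of the 7 also passed there, against 43.8% of all genes. The median over the 7 was 0.59 in central retina and 0.51 in peripheral retina, against −0.10 and −0.08 over all genes. Positive medians were not particular to the 7. They were 0.59 and 0.32 for bipolar cell, 0.50 and 0.30 for cone, 0.22 and 0.86 for rod and 0.54 and 0.39 for GABA receptor genes. Ganglion cell genes were at 1.78 and −0.07, and Müller glia genes at −0.98 and −0.01. Against whole eye, 2 of the 7 rose and 1 fell in central retina (background 21.0% and 34.2%). In peripheral retina 3 were higher and 2 lower (12.3% and 27.6%). The medians of the 7 were 0.10 and 0.18, against −0.17 and −0.14 over all genes. In either direction, 6 and 5 of the 7 passed against whole retina in central and peripheral retina, beside 48.7% and 34.2% of all genes, and 3 and 5 against whole eye, beside 55.2% and 39.9%. The libraries of central and whole retina did not overlap for 6 of the 7 genes (58.8% of all genes), those of peripheral and whole retina for 5 (57.3%), those of central retina and whole eye for 4 (64.7%), those of peripheral retina and whole eye for 5 (62.5%), and those of whole retina and whole eye for 5 (31.6%). SLC18A3 passed the filter on low values through its regional means only, so its place in the counts for peripheral retina carries that selection. These comparisons share their whole retina, whole eye or regional libraries. These calls depend on scaling. The share of calls that were higher was 38.9%, 28.8%, 38.1% and 30.9% in the order given, and 54.3%, 51.9%, 53.3% and 52.1% after median centring, which moved the median difference of all genes to 0.08, 0.11, 0.03 and 0.06; under quantile normalization it was 59.5%, 60.9%, 59.1% and 61.6%.

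**Figure D3:**
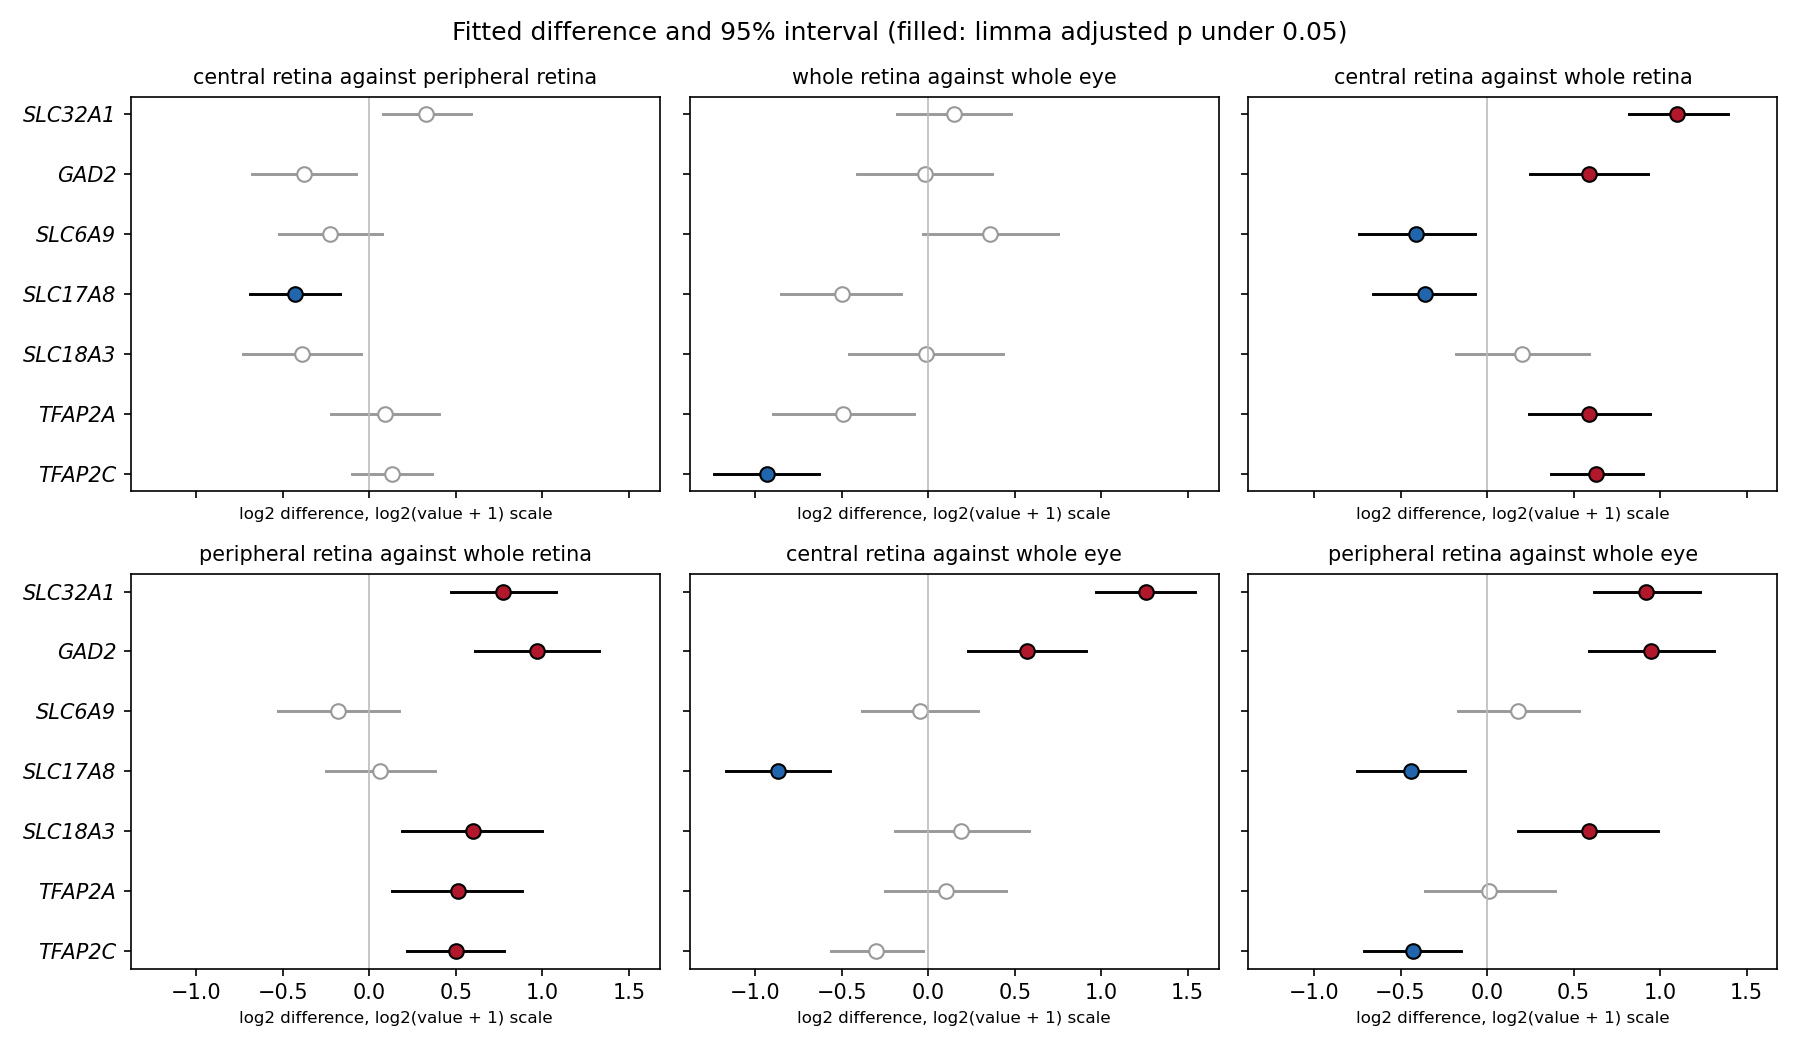
Fitted log2 difference and its 95% interval for each of the 7 genes in the 6 comparisons, on the log2(value + 1) scale, with the first-named group minus the second; filled points passed a limma adjusted p of 0.05, red for higher and blue for lower. SLC32A1 and GAD2 were higher in both regions than in whole retina and whole eye, and between the regions SLC17A8 alone is filled, at −0.43.

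By mean level, the groups came in 6 different orders, and GAD2 and SLC18A3 shared one. SLC32A1 ran from whole eye through whole retina and peripheral retina up to central retina, and of these neighbours peripheral and whole retina differed. GAD2 ran from whole retina through whole eye and central retina up to peripheral retina, where central retina and whole eye differed. For SLC6A9 (central retina, whole eye, peripheral retina, whole retina), SLC18A3 (whole retina, whole eye, central retina, peripheral retina) and TFAP2A (whole retina, whole eye, peripheral retina, central retina), no neighbours passed the test. SLC17A8 ran from central retina through whole retina and peripheral retina up to whole eye, with both of its outer steps past the threshold and the middle one not. TFAP2C ran from whole retina through peripheral and central retina up to whole eye, and only its lowest step passed.

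Ratios between these genes within a library do not change when all its values are multiplied by a common factor. Other kinds of normalization can change them, and the authors' method is not stated. Of the 21 ratios between 7 genes, 12 did not overlap between central and peripheral retina, or 57.1%, against 37.3% of all ratios between 2 tested genes that have no 0 in these libraries. Pairs that share a gene are not independent. The 12 were all of the ratios of SLC32A1, TFAP2A or TFAP2C to GAD2, SLC6A9, SLC17A8 or SLC18A3, and each was higher in central retina. The first 3 are the genes with a positive and the other 4 those with a negative difference between the regions. The grouping was read off these values.

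The ratio of the SLC32A1 value to the GAD2 value was 2.35 to 2.89 in central retina and 1.3 to 1.94 in peripheral retina, a log2 difference of 0.75. The ratio of SLC32A1 to SLC18A3 was 25.8 to 42.6 in central retina and 12.9 to 20.4 in peripheral retina, and that of SLC17A8 to TFAP2C 0.638 to 0.787 in central retina and 1.04 to 1.32 in peripheral retina. With 4 against 3 libraries, the two-sided exact permutation p was 0.0571 for each of the 12, the smallest this design can give, and 0.0999 adjusted over the 21. Ratios within either set, such as SLC32A1 to TFAP2A (1.42 to 1.93 in central retina and 1.2 to 1.65 in peripheral retina) or TFAP2A to TFAP2C (5.08 to 7.41 and 5.96 to 7.89), overlapped between the regions.

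**Figure D4:**
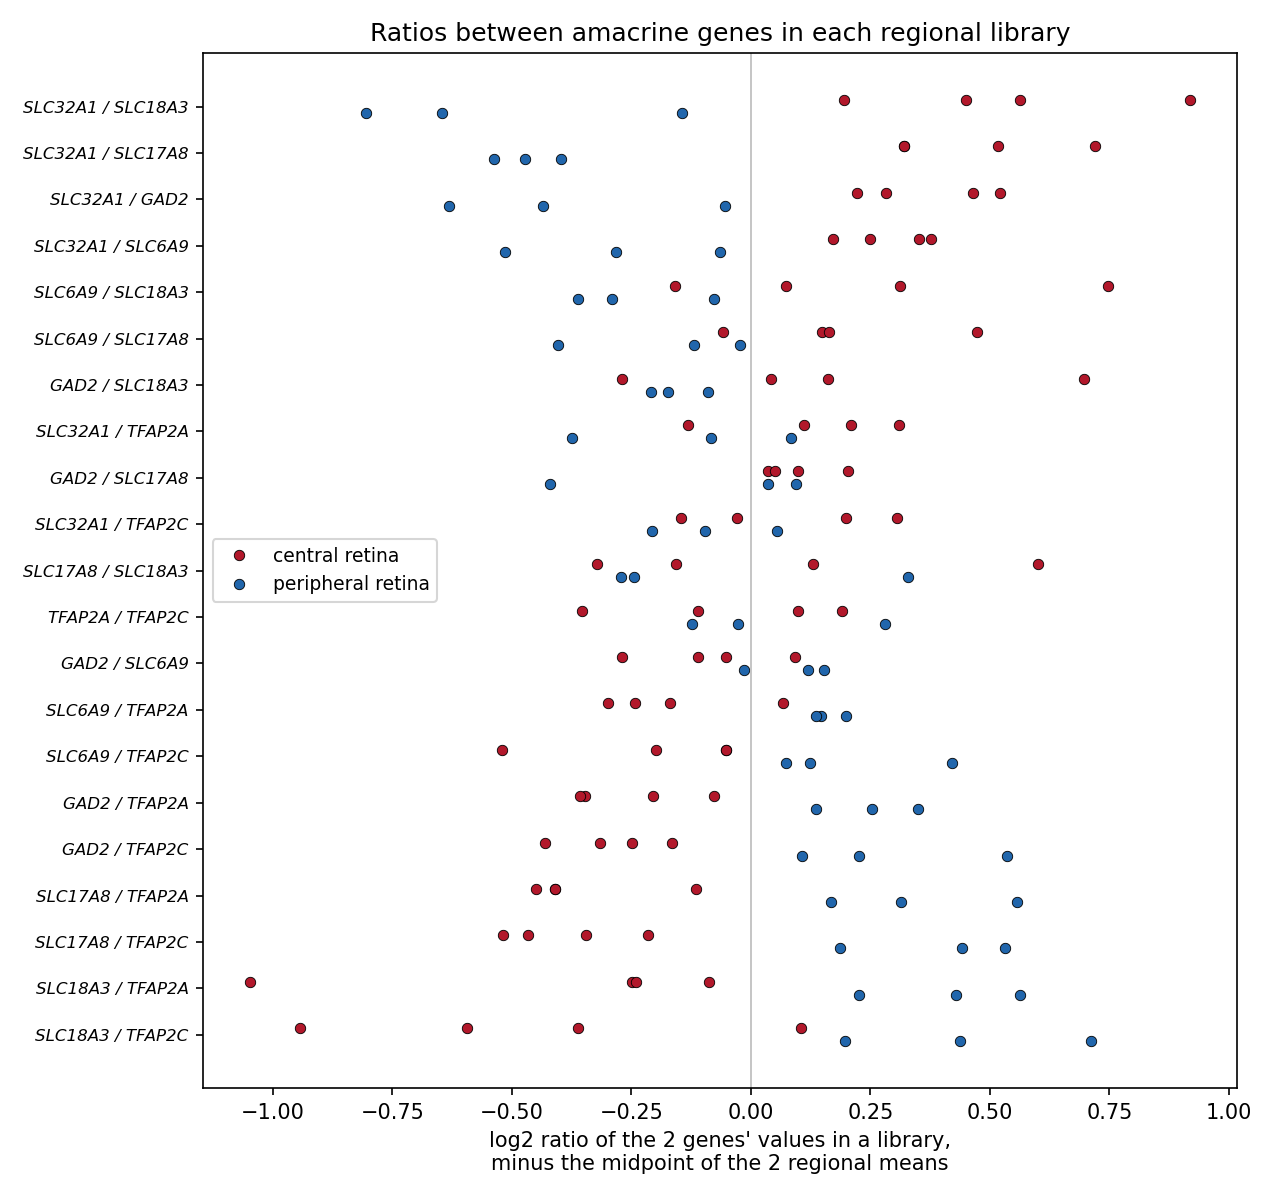
Log2 ratio of each pair of amacrine genes in each library of central retina (red) and peripheral retina (blue), shown as its distance from the midpoint of the 2 regional means. In 12 of the 21 rows the red and blue points do not overlap, among them SLC32A1 over GAD2, with ratios of 2.35 to 2.89 in central retina and 1.3 to 1.94 in peripheral retina.

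Genes around these transmitters were counted in lists chosen with earlier results of these data known, beside 12.5% higher and 8.76% lower over all genes in central against peripheral retina, and 35.7% at an unadjusted p under 0.05. Among 6 tested genes of GABA synthesis, transport and breakdown, 0 were higher and 1 was lower by limma (median −0.01), and 4 of the 6, SLC6A13 among them, have names that begin as another gene name does. Values of 2 of the 4 varied widely within a group: in central retina, SLC6A11 was listed at 8.28 to 164.02 and SLC6A12 at 1.75 to 134.67, which makes values under such names less certain. The gene that was lower was SLC6A13, a GABA transporter, at 2.26 ± 0.994 (SD, n = 4) in central retina and 8.4 ± 0.96 (SD, n = 3) in peripheral retina (−1.57, limma adjusted p = 0.000445). Pigment epithelium genes moved with it: 5 of 6 were lower in central retina, at a median of −1.34, and their part was not tested. By an unadjusted p under 0.05, 2 of the 6 passed, near the share over all genes.

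Of 10 tested GABA receptor genes, 2 were higher and 0 lower (median 0.13), with 2 at an unadjusted p under 0.05, below the share over all genes. GABBR1, a subunit of the metabotropic receptor, averaged 63.5 ± 5.94 (SD, n = 4) in central retina and 33.6 ± 4.2 (SD, n = 3) in peripheral retina (0.90, limma adjusted p = 0.000523). GABRB2, a subunit of the ionotropic GABA-A receptor, averaged 18.9 ± 2.16 in central retina and 12 ± 2.2 in peripheral retina (0.62, 0.0119; 0.0524 without peripheral retina replicate 3).

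Of 9 tested genes of glycine transport, reception and handling, 3 were higher and 1 lower (median 0.23). The 3 were subunits of the glycine receptor. GLRB, its beta subunit, averaged 22.1 ± 4.66 (SD, n = 4) in central retina and 10.5 ± 1.05 (SD, n = 3) in peripheral retina (0.99, limma adjusted p = 0.00165). GLRA1 averaged 10.2 ± 1.14 in central retina and 5.4 ± 1.28 in peripheral retina (0.82, 0.00736). GLRA2 had a difference of 0.63 at 0.0346, lost without any 1 of central retina replicates 2, 3 and 4 and peripheral retina replicates 2 and 3 (0.0658 to 0.157). The gene that was lower, GLDC, encodes the glycine-cleaving decarboxylase, and was listed at 1.9 ± 0.506 in central retina and 4.62 ± 0.535 in peripheral retina (−0.97, 0.000903). It was lower still relative to whole retina (18.7 ± 0.926, SD, n = 2), at −2.78 in central retina and −1.81 in peripheral retina (limma adjusted p = 2.13e-07 and 1.35e-05). Müller glia genes moved with GLDC between the regions: 7 of 8 were lower in central retina, at a median of −0.93, and their part was not tested.

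Of 13 tested genes on the acetylcholine list, which also holds SOX2 and MEGF10, 6 rose and 0 fell in central retina (median 0.29). The transporter and enzyme of the cholinergic cells themselves lay lower there in mean level, as given above. By an unadjusted p under 0.05, 8 passed, beside the 35.7% over all genes. Of the 6, 4 were subunits of nicotinic receptors. CHRNA6 averaged 18.4 ± 2.7 (SD, n = 4) in central retina and 4.15 ± 1.31 (SD, n = 3) in peripheral retina (1.93, limma adjusted p = 0.000108). CHRNA4 averaged 23.6 ± 5.0 in central retina and 5.65 ± 0.982 in peripheral retina (1.87, 0.000102), and CHRNB3 and CHRNB2 gave 1.67 and 0.91 (0.00107 each). ACHE, which breaks acetylcholine down, averaged 49.0 ± 5.93 in central retina and 25.5 ± 0.0987 in peripheral retina (0.91, 0.000519). CHRM3, a muscarinic receptor, was higher by 0.72 (0.038), a call that ended on removal of central retina replicate 1, 3 or 4 or of any 1 peripheral library (0.0503 to 0.132), after median centring (0.0513) and with no filter on low values (0.0571).

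Ganglion cell genes moved with these receptors between the regions. All 9 that passed the filter were higher in central retina, at a median of 1.90, 1 of them (POU4F3) having passed it through central retina alone, and their sum was 2140 to 4090 in central retina and 417 to 735 in peripheral retina; their part in the receptor differences was not tested. SLC17A6, a vesicular glutamate transporter of ganglion cells and itself on the ganglion cell list, was the 1 gene higher among 3 tested vesicular transporter and monoamine genes, at 49.1 ± 9.56 (SD, n = 4) in central retina and 12.9 ± 2.89 (SD, n = 3) in peripheral retina (1.85, limma adjusted p = 9.18e-05). It ran opposite to SLC17A8.

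Of 9 tested amacrine peptide and product genes, 0 were higher and 1 was lower by limma (median −0.15), and 3 passed at an unadjusted p under 0.05, near the share over all genes. VIP, a neuropeptide of some amacrine cells, has a name start shared with other genes. It was listed at 1.05 ± 0.439 in central retina and 2.29 ± 0.107 in peripheral retina (−0.71, limma adjusted p = 0.0275). This call was lost without central retina replicate 4 or any 1 peripheral replicate (0.0561 to 0.0836) and under quantile normalization (0.0731).

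Of 12 tested amacrine transcription factors, 3 were higher and 2 lower (median −0.04). BARHL2, a homeobox factor of amacrine and ganglion cells, averaged 10.2 ± 1.71 (SD, n = 4) in central retina and 4.44 ± 0.511 (SD, n = 3) in peripheral retina (1.04, limma adjusted p = 0.000758). TFAP2D, another gene of the AP-2 family, averaged 1.08 ± 0.227 in central retina and 0.4 ± 0.149 in peripheral retina (0.57, 0.00858, or 0.0509 without peripheral retina replicate 2). It passed the filter through central retina alone, so this call and its place in the count carry that selection; with no filter, the adjusted p was 0.00409. PAX6, expressed by amacrine and ganglion cells, was higher by 0.40 (0.0187), a call that ended on removal of central retina replicate 4 or of peripheral retina replicate 2 or 3 (0.0524 to 0.0789). Ganglion cell genes were also higher in central retina, and their part in these differences was not tested. LHX9, a LIM homeobox factor, was lower, at 2.39 ± 0.953 in central retina and 6.83 ± 0.254 in peripheral retina (−1.25, 0.000971), as was MEIS1, at 15.7 ± 1.35 in central retina and 23.2 ± 1.37 in peripheral retina (−0.53, 0.008). TFAP2B, the third AP-2 gene of amacrine cells, averaged 8.76 ± 0.742 in central retina and 9.33 ± 0.676 in peripheral retina, with overlapping libraries and a difference of −0.08 (95% interval −0.36 to 0.19).

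**Figure D5:**
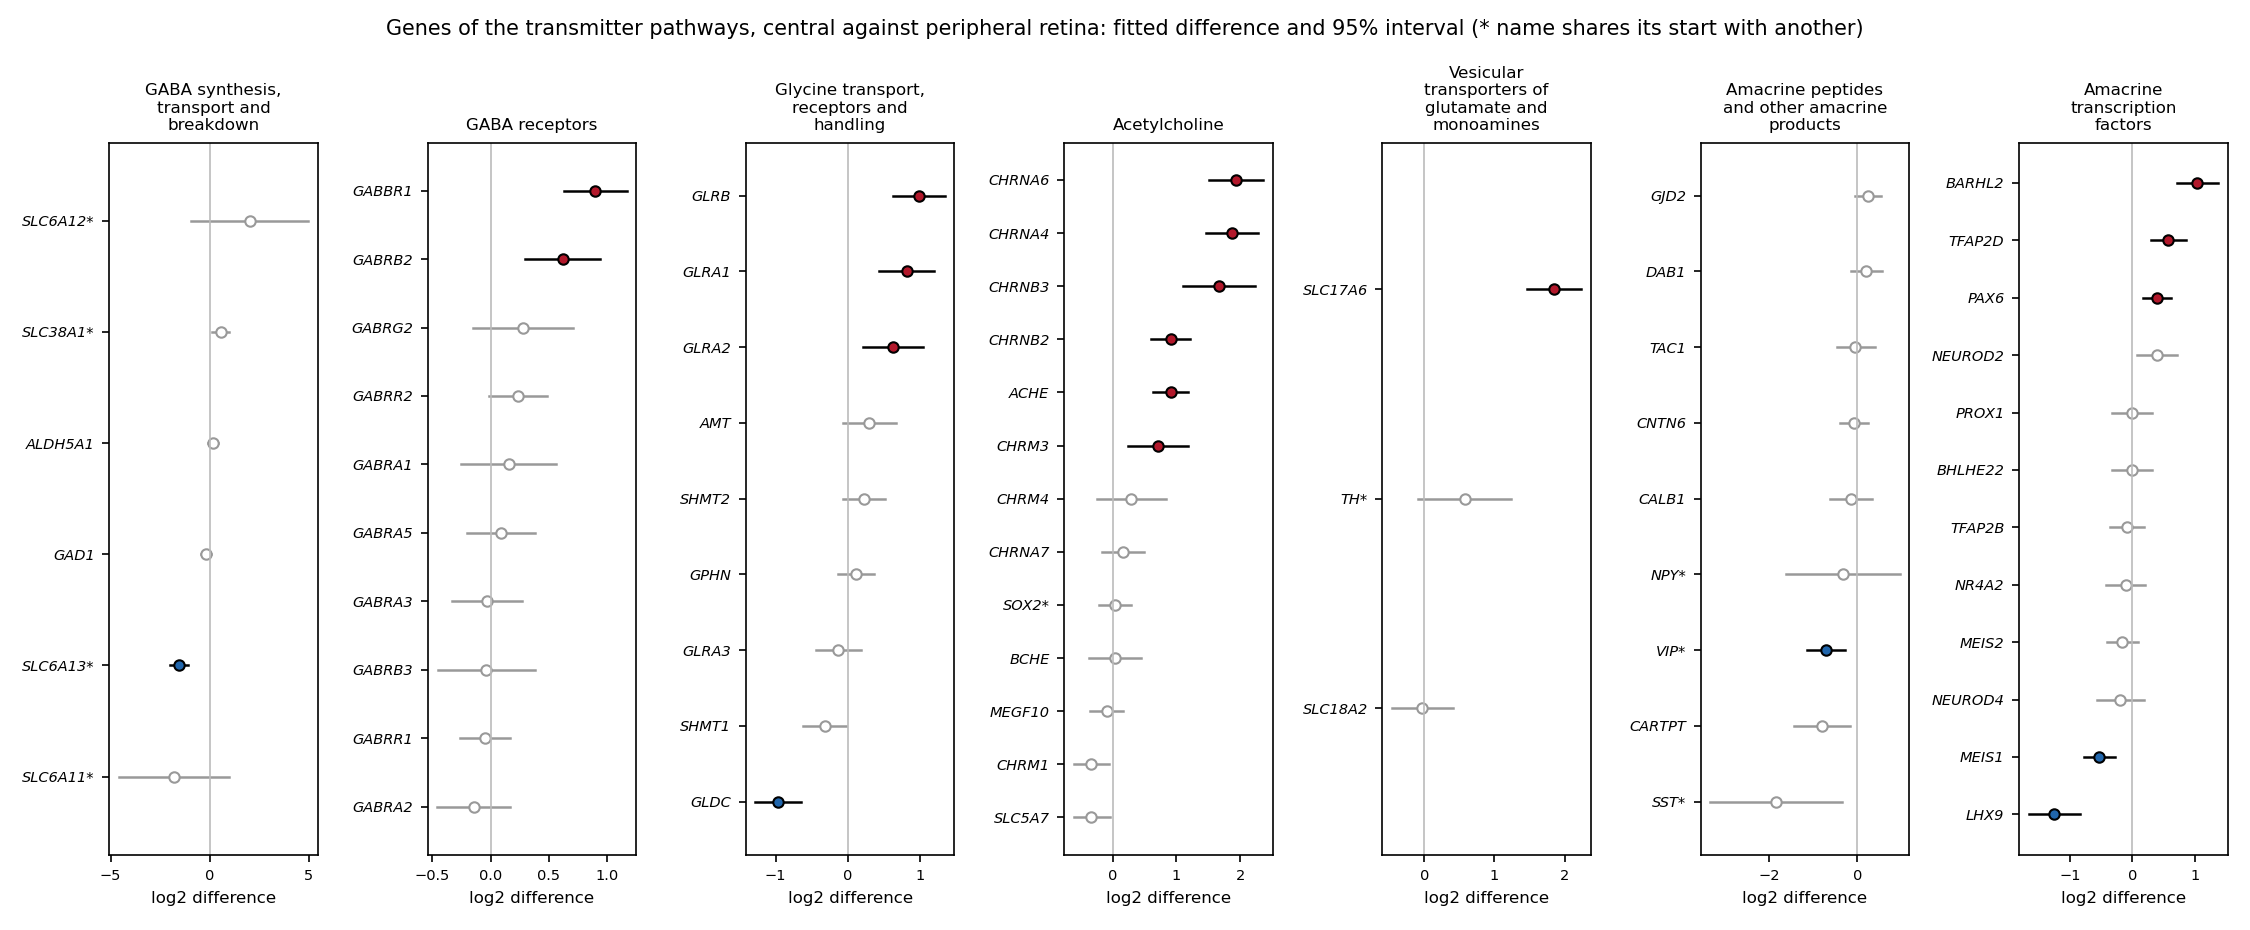
Fitted log2 difference, central minus peripheral retina, with its 95% interval for the tested genes of 7 lists, each panel on its own axis; filled points passed a limma adjusted p of 0.05, red for higher and blue for lower. Nicotinic receptor subunits (CHRNA6 at 1.93), glycine receptor subunits (GLRB at 0.99) and SLC17A6 (1.85) lie to the right, and SLC6A13 (−1.57), LHX9 (−1.25) and GLDC (−0.97) to the left; SLC6A11 and SLC6A12 have wide intervals.

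Relative to whole retina, other listed amacrine genes lay on both sides. On the transcription factor list, 6 of 12 rose and 2 fell in central retina (18.9% and 29.7% of all genes), and 5 rose and 1 fell in peripheral retina (9.83% and 24.3%), at medians of 0.36 and 0.38. TFAP2D passed the filter through central retina alone, so its place in the central counts carries that selection. On the peptide and product list, 2 of 9 rose and 1 fell in central retina, and 2 rose and 0 fell in peripheral retina by limma, where 3 passed at an unadjusted p under 0.05. NEUROD2, a neuronal transcription factor, averaged 9.08 ± 1.06 (SD, n = 4) in central, 6.68 ± 0.972 (SD, n = 3) in peripheral and 2.6 ± 0.325 (SD, n = 2) in whole retina, with differences from whole retina of 1.48 and 1.09 (limma adjusted p = 2.49e-05 and 0.00061). GJD2, the connexin of AII amacrine gap junctions, averaged 30.8 ± 1.8 in central, 25.9 ± 4.02 in peripheral and 11.9 ± 0.389 in whole retina (1.30 and 1.05, limma adjusted p = 3.4e-05 and 0.000422). PROX1, found in AII amacrine, bipolar and horizontal cells, was higher by 0.74 in both (0.00368 and 0.00743), the peripheral call being lost at 0.0527 without whole retina replicate 1. TFAP2B was higher by 0.39 and 0.48 (0.0369 and 0.0279). Both calls were lost without either whole retina replicate or peripheral retina replicate 2, the first also without central retina replicate 1, 3 or 4 and the second without peripheral retina replicate 3, at adjusted p of up to 0.134 and 0.0993.

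LHX9 was lower in central than in whole retina, at 2.39 ± 0.953 (SD, n = 4) and 7.95 ± 0.127 (SD, n = 2), a difference of −1.44 (limma adjusted p = 0.00021). NR4A2, a nuclear receptor expressed in some amacrine cells, averaged 3.98 ± 0.423 in central, 4.36 ± 0.718 in peripheral and 6.7 ± 1.73 in whole retina, and was lower in both regions, at −0.61 and −0.51 (limma adjusted p = 0.00923 and 0.0396). Both calls were lost without whole retina replicate 1 (0.118 and 0.309) and under quantile normalization (0.0813 and 0.185), and the peripheral one also without central retina replicate 3 or peripheral retina replicate 1 or 3 (0.0576 to 0.117), after median centring (0.126) and with the libraries of these groups alone (0.108). SST, the neuropeptide somatostatin, whose name begins as others do, averaged 2.11 ± 1.06 in central and 10.2 ± 3.59 in peripheral retina and was listed at 9.31 and 76.91 in whole retina. Its difference of −3.25 in central retina (limma adjusted p = 0.00498) was −1.80 and did not pass (0.0904) without whole retina replicate 2; in peripheral retina it was −1.40 and did not pass (0.214). Horizontal cells share SLC32A1 with amacrine cells, but only 2 of 6 horizontal cell markers, SEPT4 and CALB1, were listed. CALB1 is also on the amacrine product list, so the sum of the pair does not follow horizontal cells alone. That sum was 244 to 312 in central, 282 to 314 in peripheral and 208 to 217 in whole retina and 193 to 230 in whole eye. The part of horizontal cells was not tested.

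The genes whose profile over the 11 libraries lay closest to each member were found by the root mean square difference of log2 values, each profile centred on its own mean. The libraries share their groups, so likeness follows the group means. For SLC32A1 these were RET (0.087), SLRN (0.092) and SEZ6L2 (0.10). SLRN averaged 4.2 ± 0.774 (SD, n = 4) in central, 2.93 ± 0.265 (SD, n = 3) in peripheral and 1.28 ± 0.177 (SD, n = 2) in whole retina and 0.955 ± 0.0212 (SD, n = 2) in whole eye. For GAD2 they were KCNIP2 (0.126), HMX1 (0.131) and ARGLU1 (0.17), and KCNIP2, an auxiliary subunit of potassium channels, averaged 26.8 ± 1.49 in central, 34.7 ± 3.07 in peripheral and 18 ± 2.14 in whole retina and 19.6 ± 2.98 in whole eye.

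For the other members, the closest gene was SF3A1 for SLC6A9 (0.108), NME7 for SLC17A8 (0.123), PRKAB1 for SLC18A3 (0.11), WRNIP1 for TFAP2A (0.116) and RAPGEFL1 for TFAP2C (0.147). IQCB1 and THUMPD3 came next for SLC17A8 (0.125 and 0.127), and RIBC1 and IFT122 for SLC18A3 (0.13 and 0.137). The names RET, SEZ6L2, ARGLU1, THUMPD3 and WRNIP1 begin as another gene name does. Among the 7 themselves, the closest profiles were those of TFAP2A and TFAP2C (0.251) and of GAD2 and SLC18A3 (0.273), and the farthest those of SLC32A1 and SLC17A8 (0.804). No member had another of the 7 among its 3 closest genes.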

How the data were processed

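The 11 deposited tables hold 1 signal value per gene and library, which the authors had normalized by a method not stated in headers or labels; GSNAP, an aligner, and HTSeq, a read counter, are named in the submitters' processing notes. The sources used here give no build, annotation or strand setting, and no coordinates or sequences are therefore printed. Of 13083 entries, 27 without a value and 61 exact duplicates were dropped, leaving 12995 genes. All 7 member names match RefSeq symbols, and none shares its start with another name.

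Groups follow the labelled tissue. limma 3.58.1 (R 4.3.3), with a trend of variance, was fitted on log2(value + 1) to 11 libraries in 4 groups sharing 1 variance per gene. The test took genes whose mean reached 1 in any group, two-sided, with Benjamini-Hochberg adjustment within each of 6 comparisons. Differences understate changes of low genes. The fit was tested on simulated data, with changes set on the scale of value + 1. Far fewer genes were changed than passed in the comparisons of regions, so the shares recovered need not hold for these data. The fit recovered 43% of 1.5-fold and 82% of 2-fold changes in central against peripheral retina. In whole retina against whole eye it recovered 6% and 50%. Of the simulated calls, 3.77% (peripheral against whole retina) to 8.51% (central against whole retina) were false. Another 8 settings and 11 fits with 1 library left out were run. Members and lists were chosen with earlier results of these data known. Named genes are the members, list genes that passed in a comparison, direct partners of a member, and the 3 nearest profiles per member; not all of them are named. Some listed genes are not reported here and are left out of the list counts. Scipy 1.17.1 gave exact permutation tests of the ratios.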

Additional observations from a re-analysis of the deposited data

Results flagged for a closer look

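In groups of 4 libraries, which here means central retina, a library was singled out where its gap to the nearest other exceeded Dixon's 95% limit as a share of the group's range. This was checked for 35 genes and marks about 1 group in 20 by chance; it marked 1. GABBR1, a subunit of the metabotropic GABA receptor, was listed at 72.45 in central retina replicate 4, against 60.38 to 60.95 in the other 3 central libraries. None of the 7 amacrine genes was marked.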

How the results depend on the processing

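Of the 42 results on the 7 genes (each in 6 comparisons), 21 passed the test. Of these, 8 passed under every alternative that tested the gene, and 14 of the 21 that did not pass stayed so. The filter at a mean of 5 left out SLC17A8, SLC18A3 and TFAP2C, whose means are below 5 in every group. The 8 were SLC32A1 in both regions against whole retina and whole eye, GAD2 in peripheral retina against both, TFAP2C in central against whole retina and SLC17A8 in central retina against whole eye. Whole retina against whole eye gave 271 calls, 143 with a filter at a mean of 5 and 170 with the 4 libraries of these groups alone. With 1 library left out, the calls ran from 1328 to 2889 in central against peripheral retina and from 244 to 784 in whole retina against whole eye.

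Differences that did not pass changed sign as follows; the cause was not tested. SLC18A3, whole retina against whole eye, was 0.01 at a pseudocount of 0.1 and 0.10 under quantile normalization, which also gave 0.07 for SLC17A8 in central against whole retina (a call in the report) and 0.10 for TFAP2C in central retina against whole eye. SLC6A9 became 0.00 and 0.04 in peripheral against whole retina, and 0.14 and 0.09 in central retina against whole eye, under median centring and quantile normalization. With 1 library left out, differences ranged from −0.23 to 0.19 for GAD2 and −0.21 to 0.19 for SLC18A3 in whole retina against whole eye, −0.12 to 0.25 for SLC17A8 in peripheral against whole retina, −0.16 to 0.06 for SLC6A9 and −0.01 to 0.39 for SLC18A3 in central retina against whole eye, and −0.10 to 0.09 for TFAP2A in peripheral retina against whole eye.

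The labels do not say whether samples with the same replicate number are paired. Deviations of 13 same-numbered pairs correlated at −0.189 to 0.357, 7 of them over 0.1. These values cannot settle it, because deviations in a group of 2 libraries mirror each other. With the replicate block, calls numbered 2070, 213, 5427, 4224, 6160 and 4824 in central against peripheral retina, whole retina against whole eye, central and peripheral against whole retina, and central and peripheral retina against whole eye. The block turned TFAP2A to −0.04 and −0.07 in the last 2. Calls in the report were lost with it for SLC17A8 in central against peripheral and against whole retina (0.052 and 0.065), SLC18A3 in peripheral retina against whole retina and whole eye (0.0536 and 0.0514), TFAP2A and NR4A2 in peripheral against whole retina (0.0757 and 0.0801), TFAP2B in central and peripheral against whole retina (0.11 and 0.0629), and GLRA2 and CHRM3 in central against peripheral retina (0.114 and 0.0762), as limma adjusted p. Absolute depth is unknown, and SLC18A3 and CHAT, at values near or below 1, are the most limited by it.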
